A study of Mus musculus with 6 samples.

Results

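The 10 genes described here, Spry1, Spry2, Spry4, Spred1, Spred2, Spred3, Dusp4, Dusp5, Dusp6 and Phlda1, are negative feedback genes of RAS-ERK signaling and were taken by name from a count table of 24537 gene symbols. All 10 were in the table and all 10 passed the filter on low counts, which left 13101 genes for testing. The table holds RNA-seq read counts of 6 mouse brain tumors generated through in utero electroporation, where an electric pulse carries DNA into the embryonic brain. Every tumor, in CD-1 IGS mice, carried PdgfraD482V, a mutant of the PDGF receptor, and DNp53, a dominant-negative p53. The titles add FOXR2, a forkhead transcription factor, to 3 of the tumors and call the other 3 Control. The promoter of each construct, the age of the animals and the number of animals per library were not stated in the labels, and surrounding host cells can be part of a tumor sample.

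A sample sheet deposited beside the counts names the opposite group for 6 of 6 libraries, so groups go by title here, and every direction turns round if the sheet is right. Foxr2 itself drew 22, 1 and 7 counts under the FOXR2 title and 4, 10 and 7 under the Control title. That does not check the labels, since a construct without mouse Foxr2 sequence would give no reads on this gene. Libraries held 13429489 to 17927025 counts, and 3 counts came to 0.174 to 0.219 CPM (read counts relative to library size, scaled by TMM factors). The 7 glioma and precursor markers (Olig1, Olig2, Sox2, Sox10, Nes, Cspg4 and Pdgfra) summed to 5047 to 8481 CPM and were high in every library. Pdgfra, whose mutant form was supplied to every tumor, made up 2018 to 3599 CPM of that sum, with construct reads not separated. The 6 microglia markers summed to 740.1 CPM in FOXR2 replicate 2 and to 0.596 to 2.34 CPM elsewhere. Red blood cell markers were at most 0.298 CPM in sum, with 2 of 3 at 0 in every library. The 6 endothelial and vessel wall markers summed to 1.24 to 9.05 CPM. Mature oligodendrocyte markers ranged from 186 to 4799 CPM and astrocyte markers from 520.3 to 1720 CPM, each across both titles. By Xist and Y-linked counts, FOXR2 replicates 1 and 3 and Control replicate 1 came from males and the other 3 from females.

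A receptor such as Pdgfra passes its signal through RAS, RAF and MEK to the ERK kinases, which then switch on genes that damp the same pathway. Sprouty and Spred proteins act above ERK, on the step from receptor to RAS and RAF. Dual-specificity phosphatases remove the activating phosphates from ERK itself, and Phlda1 is an ERK-induced gene whose protein restrains receptor and AKT signaling. Because ERK induces them, transcripts of these genes are often read as a trace of ERK activity, including in gliomas driven by receptor mutations.

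Of the 10 genes, Phlda1 alone passed the test, at 2.64-fold higher (95% interval 1.74 to 3.998) in the libraries titled FOXR2 (n = 3 each). The test was edgeR's quasi-likelihood F test over all 13101 genes, with genes called at a Benjamini-Hochberg adjusted p under 0.05. The count of 1 higher and 0 lower among the members stands beside 0.908% of all tested genes called higher and 1.38% called lower. At an unadjusted p under 0.05, 1 of 10 members passed, against 24.9% of all tested genes and 11.9% in the higher direction. The groups did not overlap in 1 of 10 members, against 30.3% of all tested genes and 13.1% counted in the higher direction alone. DESeq2 also called 1 member, where it called 14.0% of all genes and 6.99% higher. Positive values were fitted for 7 of the 10 genes, whose median log2 fold change was 0.19. Over all tested genes the median was 0.01 and 50.7% were positive. Apart from Phlda1, no member passed even the unadjusted threshold in this edgeR fit of all 6 libraries.

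**Figure D1:**
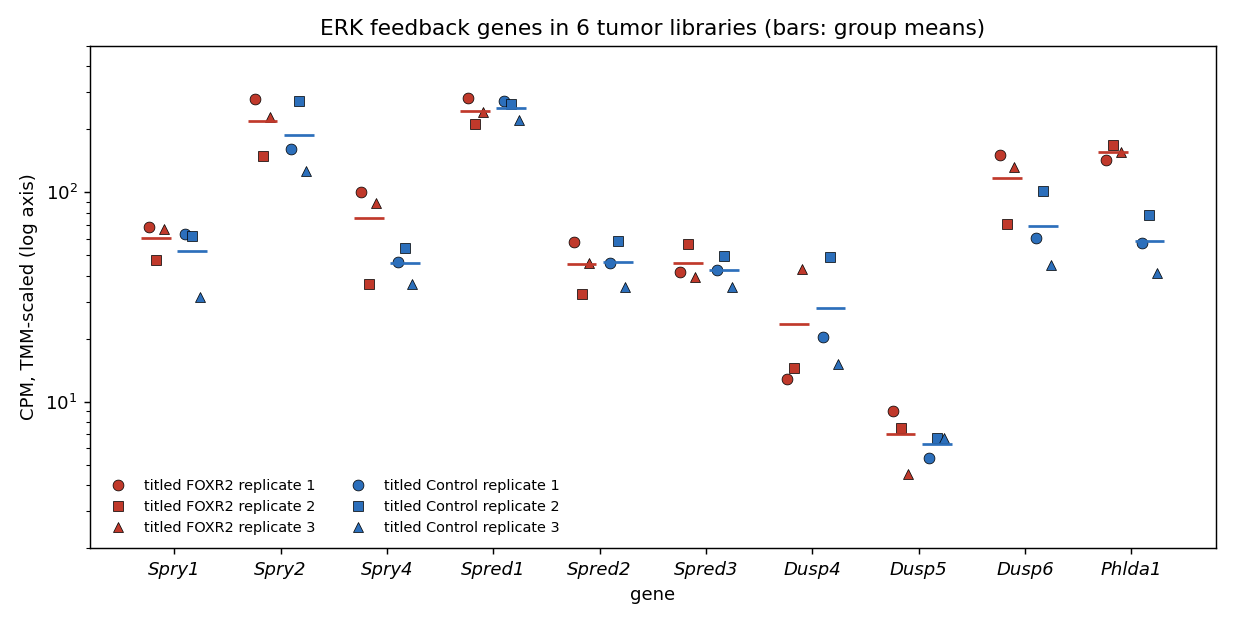
Level of each of the 10 genes in CPM on a log axis, with 1 symbol per library (red, titled FOXR2; blue, titled Control) and a bar at each group's mean. In Phlda1 the 3 red symbols, 142 to 168 CPM, lie above the 3 blue ones, 41.2 to 78.1 CPM, and in the other 9 genes the colors overlap.

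Phlda1, a pleckstrin homology-like protein first known for a part in T cell death, measured 142, 168 and 155 CPM under the FOXR2 title (here and below in the order of replicates 1, 2 and 3). Under the Control title it measured 57.3, 78.1 and 41.2 CPM. The 3 libraries titled FOXR2 were alike and the lowest of them was above the highest titled Control. The log2 fold change was 1.40 ± 0.26 (SE; edgeR adjusted p = 0.0462, unadjusted p = 0.000803). An exact 2-sided permutation test of the 6 log2 values gave p = 0.1, the smallest that 3 against 3 allows. The call did not survive the loss of a library. Without any 1 of them the log2 fold change was 1.19 to 1.66, while the adjusted p rose to between 0.0697 and 0.138. With sex as a covariate the adjusted p was 0.122, and with an offset for gene length and GC content 0.0518. Gm28592, a noncoding gene, overlaps Phlda1 on the opposite strand in the GENCODE M21 annotation, and reads of the pair may not have been separated.

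Phlda1 was as high in the library with microglial transcripts (FOXR2 replicate 2, 168 CPM) as in the others titled FOXR2, and without that library its log2 fold change was 1.34. Within males it averaged 149 CPM in 2 libraries with the FOXR2 title and 57.3 CPM in 1 Control library. Within females it was 168 CPM in 1 library and 59.7 on average in 2. The log2 ratio was 1.38 in males and 1.497 in females. The 6 neuron markers were also higher in sum in each library with the FOXR2 title, coming to 420.0, 396 and 391 CPM under the FOXR2 title and 86.6, 60.9 and 121 CPM under the Control title. The 2 ranges did not overlap. All 6 were tested and Syt1, the calcium sensor of synaptic vesicles, was called higher, with 153, 61.3 and 31.6 CPM against 7.44, 4.35 and 2.73 CPM (edgeR adjusted p = 0.0436). The other 5 did not pass, and Tubb3 and Stmn2 overlapped between titles, with Stmn2 at 0.848, 6.71 and 0.657 CPM against 1.14, 0.477 and 2.38 CPM. Of the 6 astrocyte markers, Slc1a2 was also called higher, at 73.9, 76.1 and 96.9 CPM against 19.5, 22.2 and 32.3 CPM (edgeR adjusted p = 0.0379). Aldh1l1 was lower without overlap, at 18.2, 66.7 and 12.5 CPM against 145, 95.7 and 78.4 CPM, and did not pass (edgeR adjusted p = 0.150). Aqp4, Gfap, Slc1a3 and Aldoc overlapped between titles. The part of the neuron and astrocyte markers in the Phlda1 result was not tested. In bulk tumors more cells of a type and more RNA per cell cannot be told apart.

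Dusp6, the cytoplasmic phosphatase that acts on ERK and little else, had the next largest value. Under the FOXR2 title it measured 150.4, 70.7 and 132 CPM and under the Control title 60.4, 102 and 44.8 CPM. The groups overlapped, since FOXR2 replicate 2 lay below Control replicate 2. The log2 fold change of 0.77 ± 0.38 did not pass (edgeR adjusted p = 0.262), and its 95% interval on the fold scale ran from 0.913 to 3.18, so neither no change nor a 3-fold increase lay outside it. Among males the mean of 2 FOXR2 libraries was 141 CPM and the 1 Control library had 60.4 CPM. Among females the 1 FOXR2 library, replicate 2 with its microglial transcripts, had 70.7 CPM and the mean of 2 Control libraries was 73.4 CPM. With 1 library in an arm of each sex, a difference between the sexes was not tested. With sex as a covariate the log2 fold change was 0.59. Leaving out 1 library gave values from 0.53 (without Control replicate 3) to 1.17 (without Control replicate 2), none of which passed after adjustment.

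The promoter of Dusp6 is shown because the series title names ETS circuits. Several ETS factors are activated by ERK, and their binding sites share the core GGAA. The window is the 250 bases before the RefSeq start (GRCm38.p6, chr10:99262981-99263230, plus strand), with capitals marking GGAA on either strand, and it held 6 such cores.

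Dusp6: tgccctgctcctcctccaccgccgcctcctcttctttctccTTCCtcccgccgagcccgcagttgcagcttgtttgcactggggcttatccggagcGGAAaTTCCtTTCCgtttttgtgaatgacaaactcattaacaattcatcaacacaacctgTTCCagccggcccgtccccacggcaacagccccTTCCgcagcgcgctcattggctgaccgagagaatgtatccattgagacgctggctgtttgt

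RefSeq windows were matched by symbol for 7 of the 10 genes, with Spry4, Dusp4 and Phlda1 unmatched. All 7 held at least 1 GGAA core, from 1 in Spry1 and in Spred3 to 7 in Spred2, as did 93.4% of all 32851 windows of that length. The longer ETS form CCGGAA was in 0 of the 7 and in 12.0% of all windows. The cyclic AMP element TGACGTCA was in 0 of the 7 (1.55% of all), as was the AP-1 element TGAGTCA (4.46% of all), and every motif was searched on both strands. The CArG box, which serum response factor binds beside ETS partners, was in Dusp5 alone (1.47% of all windows). The 7 windows had a median GC content of 62.4%, against 52.4% over all windows. These are matches of letters and say nothing on which factors were bound.

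Dusp5, a nuclear phosphatase that holds ERK in the nucleus, is shown for its pair of adjoining CArG boxes, in capitals, which begin 82 and 72 bases before the start (GRCm38.p6, chr19:53528895-53529144, plus strand).

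Dusp5: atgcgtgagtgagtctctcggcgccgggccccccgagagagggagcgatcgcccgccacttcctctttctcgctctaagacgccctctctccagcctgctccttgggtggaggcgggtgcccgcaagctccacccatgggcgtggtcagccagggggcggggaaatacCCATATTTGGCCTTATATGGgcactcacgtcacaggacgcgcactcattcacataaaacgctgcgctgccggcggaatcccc

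It was the least abundant of the 10 genes, with 9.004, 7.47 and 4.52 CPM under the FOXR2 title and 5.40, 6.73 and 6.74 CPM under the Control title. FOXR2 replicates 1 and 3 were its highest and lowest libraries, so the spread within that group spanned the other. These values came from 62 to 138 counts per library. The log2 fold change was 0.15 ± 0.35 (edgeR adjusted p = 0.819).

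Dusp4, a nuclear phosphatase of ERK and other MAP kinases, had the widest spread of the 3 phosphatases and the lowest fitted value of the 10 genes. Under the FOXR2 title it measured 12.8, 14.6 and 43.05 CPM and under the Control title 20.4, 49.05 and 15.2 CPM. One library of each title, FOXR2 replicate 3 and Control replicate 2, was well above the rest. Its log2 fold change was -0.27 ± 0.60 (edgeR adjusted p = 0.816). Leaving out Control replicate 2 turned it to 0.41, leaving out FOXR2 replicate 1 to 0.03, and leaving out FOXR2 replicate 3 gave -1.05, none of which passed. Dusp4 and Phlda1 differed most among all pairs of the 10 genes, with a root mean square difference of 1.05 between their mean-centered log2 levels.

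The Sprouty genes encode membrane-associated inhibitors that are phosphorylated after receptor activation. Spry4 measured 100.2, 36.4 and 89.1 CPM under the FOXR2 title and 46.7, 54.1 and 36.7 CPM under the Control title. FOXR2 replicates 1 and 3 were above every Control library, and FOXR2 replicate 2 was the lowest of all 6, level with Control replicate 3. The log2 fold change was 0.72 ± 0.37 (edgeR adjusted p = 0.281), and without FOXR2 replicate 2 it was 1.05 with an adjusted p of 0.0715. Within males Spry4 averaged 94.7 CPM in 2 FOXR2 libraries against 46.7 CPM in 1 Control library. Within females it was 36.4 CPM in FOXR2 replicate 2 alone, the library with microglial transcripts, against a mean of 45.4 CPM in 2 Control libraries. With sex as a covariate its log2 fold change was 0.35.

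Spry2, the most abundant Sprouty, measured 278, 149 and 229 CPM under the FOXR2 title and 161, 274 and 127 CPM under the Control title. High and low libraries were found under both titles, and the log2 fold change was 0.22 ± 0.35 (edgeR adjusted p = 0.730). It was 0.0044 without Control replicate 3, 0.016 without FOXR2 replicate 1, 0.12 without Control replicate 1, 0.43 without FOXR2 replicate 2 and 0.61 without Control replicate 2. Spry1, which also restrains FGF and GDNF receptor signaling in development, measured 68.4, 47.7 and 66.5 CPM against 63.0, 62.0 and 31.7 CPM. Control replicate 3 lay apart below the other 5. Its log2 fold change of 0.22 ± 0.30 (edgeR adjusted p = 0.690) was -0.04 without that library.

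Spred proteins share the Sprouty domain and bring neurofibromin, a RAS inactivator, to the membrane. Spred1, the gene mutated in Legius syndrome, was the steadiest of the 10 with 282, 211 and 241 CPM under the FOXR2 title and 272, 263 and 222 CPM under the Control title. Its highest library was 1.34-fold above its lowest, and its 95% interval for the fold between titles was 0.716 to 1.31 (log2 fold change -0.04 ± 0.19, edgeR adjusted p = 0.907). That interval leaves out a 2-fold change in either direction. Spred2 measured 57.7, 32.8 and 46.0 CPM against 46.2, 58.4 and 35.15 CPM, and the fitted value was -0.03 ± 0.28 (edgeR adjusted p = 0.952). Spred3 measured 41.7, 56.9 and 39.3 CPM against 42.8, 49.8 and 35.3 CPM, with 0.11 ± 0.22 (edgeR adjusted p = 0.796). Both groups overlapped in each Spred gene. Spred2 and Spred3 had intervals for the fold of 0.623 to 1.53 and 0.751 to 1.55, which likewise left out 2-fold changes.

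**Figure D2:**
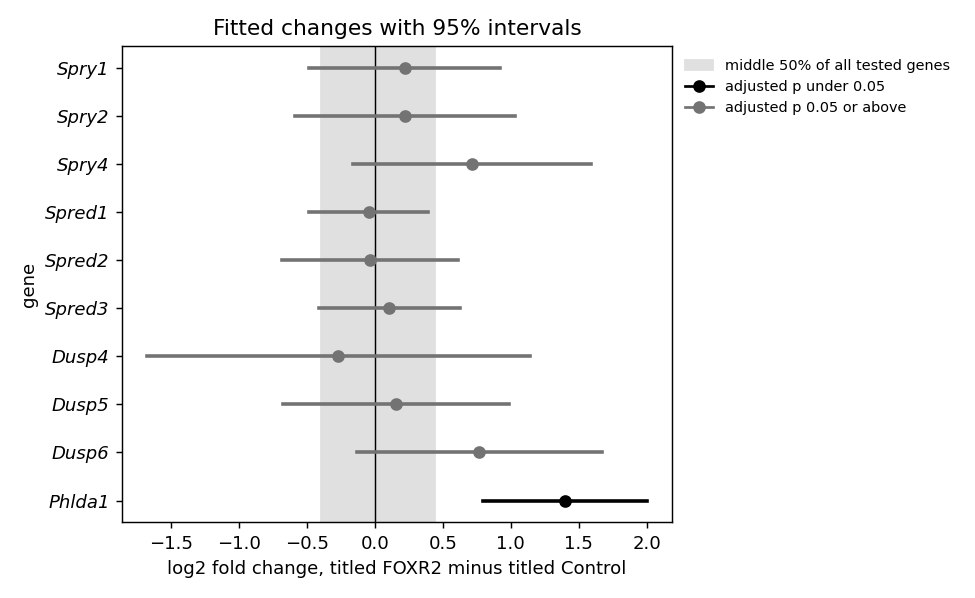
Log2 fold change of each gene, titled FOXR2 minus titled Control, as a point with its 95% interval from the edgeR fit, over a gray band that holds the middle 50% of all tested genes. The interval of Phlda1 alone lies wholly above 0, and those of Dusp6 and Spry4 lie mostly above it.

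The libraries differed from each other in these genes in a way that cut across the titles. FOXR2 replicate 1 was the highest library for 6 of the 10 genes and Control replicate 3 the lowest for 5. FOXR2 replicate 2 was lowest for 3 genes (Spry4, Spred1 and Spred2) and highest for 2 (Spred3 and Phlda1). The ratio of the highest to the lowest library was above 2 in 6 of 10 genes. Its median over the 10 was 2.18, close to the median of 2.02 over 10360 genes at or above the lowest member in mean CPM and with reads in every library.

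Dusp6 and Spry4 were each other's nearest member, with a root mean square difference of 0.25 in mean-centered log2 level over the 6 libraries. Spred1 and Spred2 were likewise nearest to each other at 0.19. Phlda1 was nearest to Dusp6, but at 0.53. Pdgfra, whose mutant form was supplied to all tumors, measured 3599, 2497 and 3263 CPM under the FOXR2 title and 2045, 2506 and 2018 CPM under the Control title (edgeR adjusted p = 0.187). Ranked from highest to lowest, the libraries came in the same order for Dusp6 as for Pdgfra, namely FOXR2 1, FOXR2 3, Control 2, FOXR2 2, Control 1 and Control 3. Among 13100 other tested genes, 40 had this order (0.305%), Dusp6 alone among the members. The match was noticed after the values were seen and carries no test.

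Per 100 CPM of Pdgfra, Dusp6 amounted to 4.18, 2.83 and 4.04 CPM under the FOXR2 title and 2.95, 4.07 and 2.22 CPM under the Control title. Set against the receptor, Dusp6 still overlapped between titles. Phlda1 amounted to 3.96, 6.74 and 4.75 CPM per 100 CPM of Pdgfra against 2.80, 3.12 and 2.04 CPM, without overlap. Spred1 and Spred2 did not overlap on this scale either, and both were lower under the FOXR2 title. In CPM alone both overlapped, with log2 fold changes of -0.04 and -0.03, while Pdgfra, the divisor, was fitted at 0.51. Spred1 amounted to 7.83, 8.46 and 7.39 CPM against 13.3, 10.5 and 10.99 CPM. Spred2 amounted to 1.604, 1.32 and 1.41 CPM against 2.26, 2.33 and 1.74 CPM. The remaining members overlapped, and how often other genes separate on this scale was not tested. Reads of the construct and of the mouse's own Pdgfra were not separated here.

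Levels of different genes can be set side by side only per length, here as CPM per kilobase of exon. On that scale Spry2 was highest, with a mean over 6 libraries of 97.3 (60.7 to 133). Phlda1 followed at 54.9 (21.1 to 86.4), Spred1 at 36.6 (31.1 to 41.6) and Dusp6 at 33.4 (16.0 to 53.8). Spry1 had 19.5, Spry4 12.7, Spred3 10.9, Spred2 10.4, Dusp4 9.43 and Dusp5 2.69 CPM per kilobase. Neighbors in this order overlapped in range over the libraries, except Dusp4 and Dusp5.

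Within the Sprouty family Spry2 made up 71.0% to 80.1% of the summed CPM per kilobase, and within the Spred family Spred1 made up 59.3% to 66.3%. The leading gene of each family was thus the same in every library. Dusp6 led its family with shares of 86.6%, 75.2% and 72.9% under the FOXR2 title and 69.2%, 63.9% and 66.0% under the Control title. The share of Dusp6 did not overlap between titles although its level did. Shares of all the other genes in these families overlapped. The separation of the Dusp6 share was noticed after the values were seen, and no test of it was run. The families as sums varied 2.24-fold between libraries for Sprouty, 1.32-fold for Spred, 2.66-fold for the phosphatases and 4.09-fold for Phlda1.

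**Figure D3:**
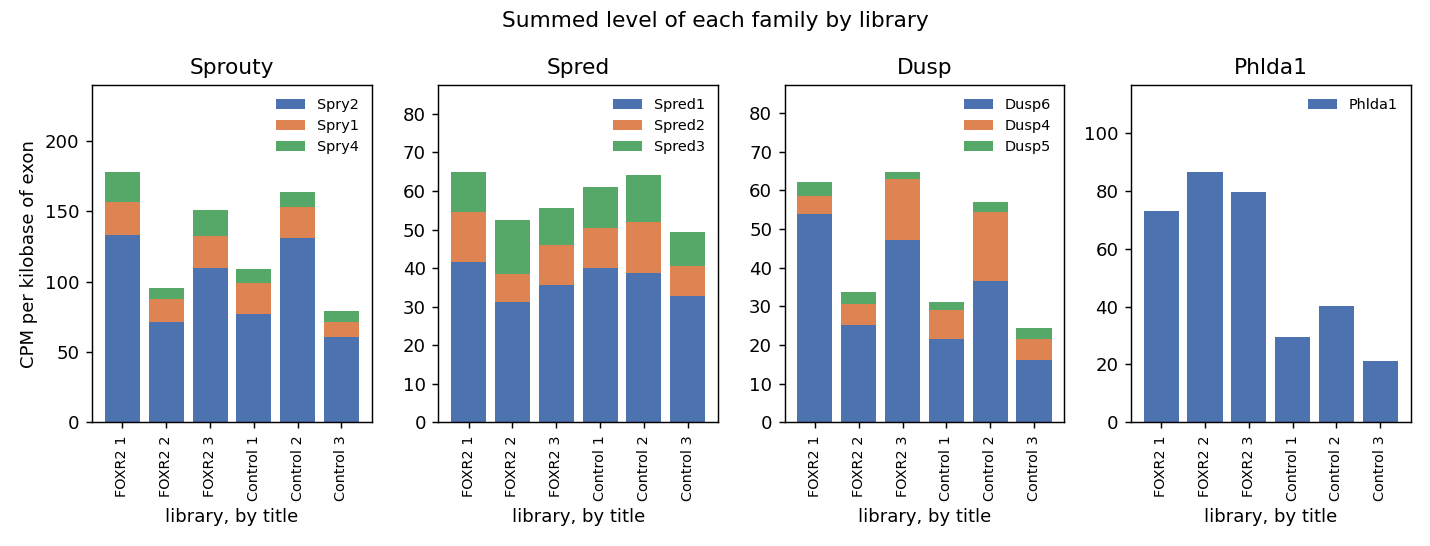
Stacked bars of CPM per kilobase of exon for each family in each library, named by title and replicate, with 1 color per gene. Sprouty and phosphatase bars are tall in FOXR2 1, FOXR2 3 and Control 2 and short in Control 3, Spred bars stay between 49.3 and 64.8, and Phlda1 bars are taller under the FOXR2 title.

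The wider pathway was described from 3 further lists, which were drawn up with earlier results of these data known. Their medians are a description and carry no test. Of 21 genes of the signaling core from adaptor to kinase, 0 were called by edgeR and 0 by limma-voom, 4 were higher and 1 lower at an unadjusted edgeR p under 0.05 (24.9% of all tested genes in either direction), and the median log2 fold change was 0.06. DESeq2 called 3 of them higher and 1 lower, beside 14.0% of all genes. The smallest edgeR adjusted p belonged to Gab1, a docking protein of receptors, fitted at 1.01 ± 0.28 on the log2 scale (adjusted p = 0.0950), and next to the adaptor Shc1, fitted at -0.69 ± 0.20 (0.0952). Mapk3, a kinase at the end of the core, had a log2 fold change of -0.40 and was highest in Control replicate 3 (322 CPM, against 111 to 161 elsewhere).

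Of 15 other restraints of the pathway, 14 were tested and Spry3 had 0 counts in all libraries. By edgeR and limma-voom 0 were called. At an unadjusted edgeR p under 0.05, 2 were higher and 1 lower, beside 24.9% of all tested genes in either direction. DESeq2 called 1 higher and 1 lower, beside 14.0% of all genes. Lrig1, which lowers receptor levels, measured 136, 50.2 and 195 CPM under the FOXR2 title and 50.1, 41.9 and 22.0 CPM under the Control title (log2 fold change 1.74 ± 0.52, edgeR adjusted p = 0.105). FOXR2 replicate 2 and Control replicate 1 nearly met. Dusp2, a nuclear phosphatase of activated lymphocytes, measured 0.979, 1.83 and 0.949 CPM against 4.08, 5.19 and 4.76 CPM (-1.89 ± 0.43, edgeR adjusted p = 0.0648). Dusp10, which acts on the stress kinases JNK and p38, had 1.00 ± 0.41 (edgeR adjusted p = 0.185).

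Of 13 genes that ERK induces and that are not feedback genes, 12 were tested, 10 with a positive fit, and the median log2 fold change was 0.74. By edgeR and limma-voom 0 were called, 3 were higher at an unadjusted edgeR p under 0.05, where 11.9% of all tested genes were, and DESeq2 called 2 higher, where it called 6.99% of all genes higher. Epha4, an ephrin receptor, had 2.29 ± 0.52 (edgeR adjusted p = 0.0648), Myc 0.74 ± 0.22 (0.102) and Ccnd1, the G1 cyclin, 0.93 ± 0.36 (0.171). The ETS factors Etv4 and Etv5 had 0.74 and 0.73, with Etv5 at 472, 204 and 623 CPM under the FOXR2 title and 291, 304 and 188 CPM under the Control title. As for Dusp6 and Spry4, FOXR2 replicates 1 and 3 were the highest libraries of Etv4 and Etv5 and FOXR2 replicate 2 was among the 2 lowest for Etv4, Etv5 and Spry4. The immediate early genes Egr1 and Ier2 had 0.02 and -0.06.

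**Figure D4:**
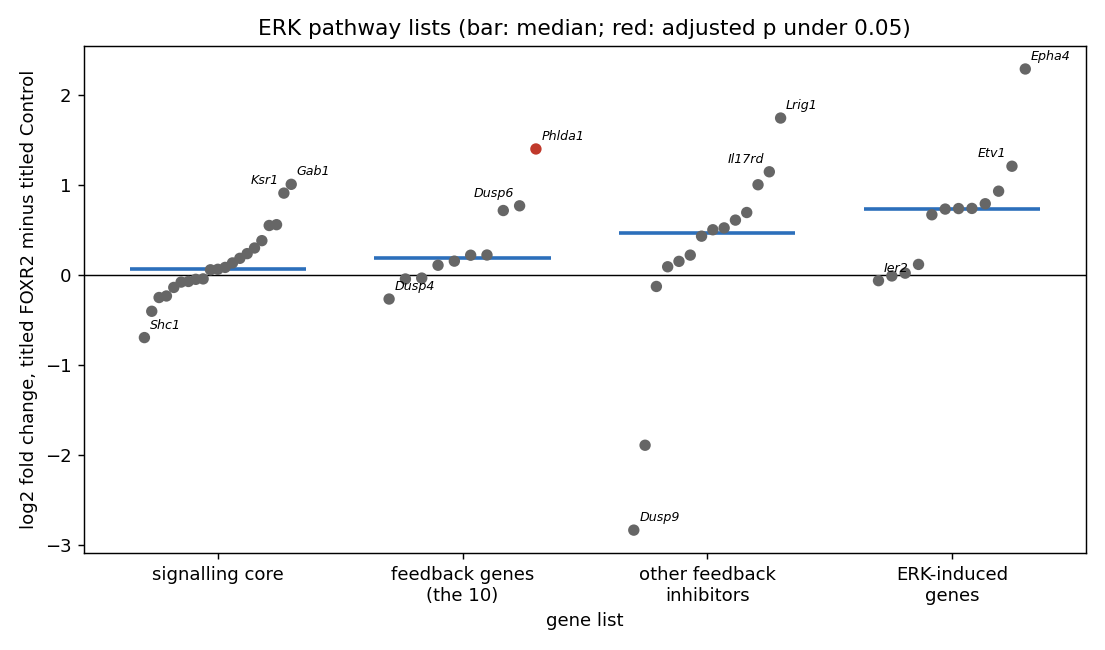
Log2 fold change, titled FOXR2 minus titled Control, of each tested gene in 4 lists, sorted within a list, with a blue bar at the median and red for an edgeR adjusted p under 0.05. The medians are 0.06 for the core, 0.19 for the 10 feedback genes, 0.47 for other inhibitors and 0.74 for ERK-induced genes, and Phlda1 is the 1 red point.

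Among 9282 named genes that averaged 10 CPM or more, those most like Phlda1 in mean-centered log2 level over the 6 libraries were Kirrel3, Tmem158, Cadps, Crmp1 and Syn1, at root mean square differences of 0.09 to 0.23. Most like Dusp6 were Nr1d2, Foxo3, Pknox1, Elk3 and Pde10a (0.10 to 0.18). Most like Spry4 were Dapk1, Kremen1, Abhd2, Sema6d and Ncoa1 (0.11 to 0.15). No gene was on more than 1 of these lists. Cadps and Syn1 encode neuronal proteins of vesicle release. These likenesses are a description over 6 libraries and carry no test.

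The values of the 10 genes under other ways of fitting are set out together. Spry4, Dusp6 and Phlda1 stayed positive in every one of the 14 alternatives, at 0.35 or more, and no gene but Phlda1 passed the threshold in any of them.

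**Figure D5:**
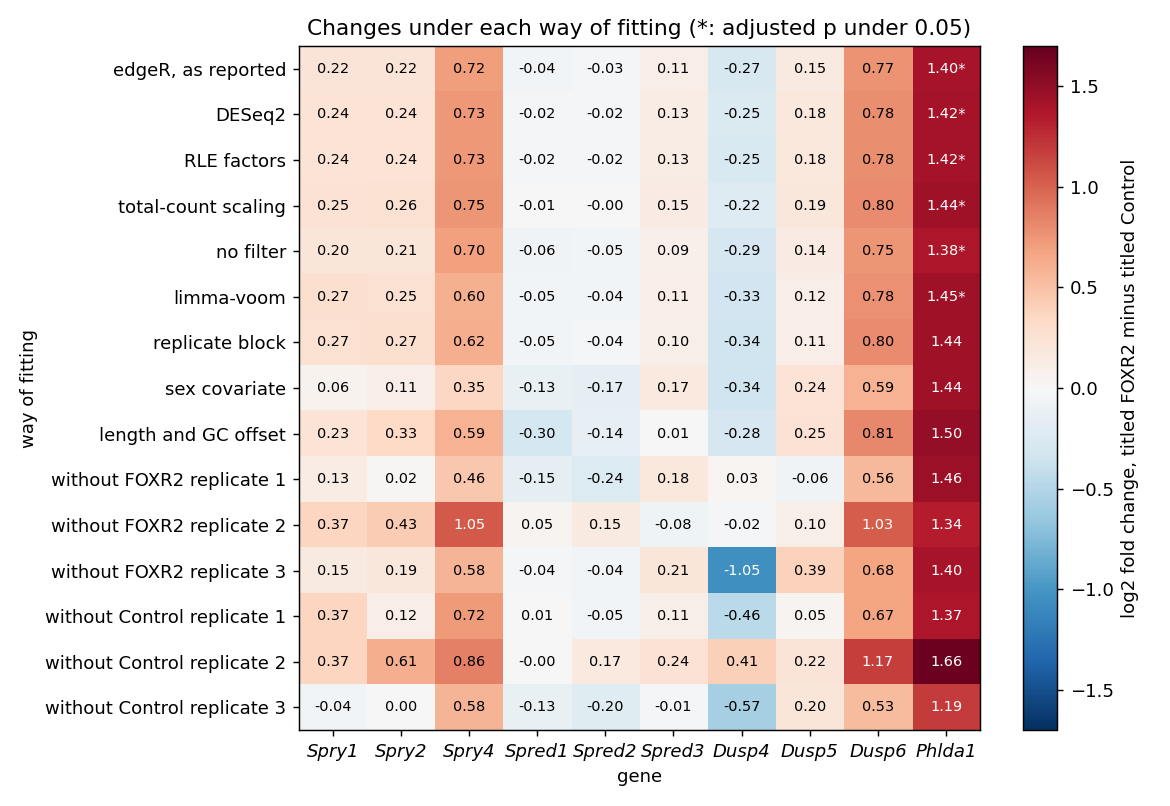
Log2 fold change, titled FOXR2 minus titled Control, of each gene (columns) under the reported edgeR fit and 14 alternatives (rows), with red for positive and blue for negative values and a star for an adjusted p under 0.05. Phlda1 runs from 1.19 to 1.66 and is starred in the reported fit and 5 alternatives, and Dusp4 runs from -1.05 to 0.41.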

How the data were processed

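The deposited whole-number counts, 1 column per library, were used as given. Per the labels' protocols, poly(A) RNA went through a strand-specific kit and was read from 1 end for 51 bases. The submitters' processing notes name TopHat, DESeq2 and the human build hg19. The table lists mouse gene symbols, so the note conflicts with it, and the build behind the counts could not be settled. How reads were counted, on which annotation and with or without strand, is not given in the sources used here. In GENCODE M21, genes on the other strand overlap Spry1, Spry4, Spred3, Dusp5 and Phlda1, so their counts are uncertain to that extent. Of these only Ggn, which overlaps Spred3, was in the table (38 to 79 counts). The 23 rows that held dates were never named. The deposited sheet's group words, of unit other, were read only for comparison with the titles.

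Genes were kept by filterByExpr (count minimum 10), scaled by TMM and fitted with edgeR 4.0.16 in R 4.3.3 without covariates. Log2 fold changes use a prior count of 0.125, ± after them is the SE, and intervals use the fit's degrees of freedom. Exon lengths are unions of GENCODE M21 basic exons. Alternatives were limma-voom (limma 3.58.1), DESeq2 1.42.0, scaling by RLE factors or by total counts, all genes unfiltered, the replicate number as a block, animal sex, an offset for length and GC (mgcv 1.9.3, 97.7% of genes) and each library left out in turn. The members and lists were chosen with earlier results of these data known. The text names all members and, from each list, any called gene and the 3 with the smallest adjusted p. For Spry4, Dusp6 and Phlda1 it names the 5 most alike genes. Some genes of the signaling core that this rule covers are not reported here. Others (Mapk3, Etv4, Etv5, Egr1, Ier2, Syt1, Slc1a2 and Aldh1l1) were chosen after their values were seen. In a simulation of this comparison with 12957 genes, edgeR recovered 46% of 4-fold and 2% of 2-fold changes, with 2 of 50 calls false. DESeq2 recovered 82% and 23%, with 59 of 164 calls false. The simulation changed far fewer genes than passed an unadjusted p under 0.05 in the data. Its shares of changes recovered and calls false therefore need not hold for these data. Libraries of 1 title differed by more than sampling noise (chi-square per gene, median 8.37 or more). No label says that each sample is a separate animal. Both sexes occur under each title, so each group holds at least 2 animals, while the spread that the p-values measure may in part be technical.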

Additional observations from a re-analysis of the deposited data

How the results depend on the processing

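The fitted value of Phlda1 stayed between 1.19 and 1.66 under all 14 alternatives, with an unadjusted p of at most 0.00504. It passed the adjusted threshold in 5 of them, which were DESeq2, RLE factors, total-count scaling, no filter and limma-voom (adjusted p from 9.14e-05 with DESeq2). It missed it with the replicate block (adjusted p = 0.118), with sex (0.122) and with the offset for length and GC (0.0518), which left 0 members called, as did each of the 6 fits that left out a library (0 to 0). Over the 14 alternatives Dusp6 ranged from 0.53 to 1.17, Spry4 from 0.35 to 1.05 and Spry2 from 0.0044 to 0.61. Leaving out 1 library turned small values round in 6 genes, with ranges of -0.041 to 0.37 for Spry1, -0.15 to 0.051 for Spred1, -0.24 to 0.17 for Spred2, -0.076 to 0.24 for Spred3, -1.05 to 0.41 for Dusp4 and -0.064 to 0.39 for Dusp5. The members' median was 0.14 to 0.24 under the other settings and -0.0049 to 0.39 without a library.

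Calls over the whole table moved too in most fits, and the cause was not tested. Against 119 higher and 181 lower, DESeq2 gave 916 and 921 and total-count scaling 105 and 119. The replicate block gave 0 and 0, and sex 7 and 0. The fits without a library all had fewer samples but differed from each other. Without FOXR2 replicate 2, the library with microglial transcripts, 123 were higher and 82 lower. Without any other library, 1 to 9 were higher and 0 to 1 lower. In DESeq2, 3 core genes were higher (Gab1 among them) and 1 lower (Shc1), 1 other inhibitor was higher (Lrig1) and 1 lower (Dusp2), and 2 ERK-induced genes were higher (Epha4 and Myc). Same-numbered libraries did not deviate together (correlations of -0.0161, -0.241 and -0.0104 across genes), so the titles' numbers were not taken as pairs. Each member had 62 or more counts in every library. How much of a member's spread between libraries was counting error was not tested.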
